A study of Mus musculus with 4 samples.

Results

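The genes described here are 8 members of 1 functional group: Parp1, Parp8, Parp9, Parp10, Parp11, Parp12 and Parp14 of the ADP-ribosyltransferase (PARP) family, and Dtx3l, which encodes the partner protein of Parp9. They were chosen by symbol from the 34097 genes listed in each library, and all 8 were found. Parp9, Parp10, Parp11, Parp12, Parp14 and Dtx3l are called the 6 interferon-linked genes below, Parp8 is given beside them, and Parp1 serves as the housekeeping member. The cells came from transplanted mouse hearts on day 5 after grafting, profiled by droplet single-cell RNA sequencing in which each unique molecular identifier (UMI) stands for 1 captured transcript. The labels give 3 allogeneic libraries (replicates 1, 2 and 3), from grafts into genetically different recipients, and 1 isogeneic library (replicate 2, the isograft), from a graft into a genetically matched recipient. Both groups are surgical grafts taken at the same time, so the isograft carries the operation without the genetic mismatch, and no unoperated heart is among the samples. The labels name no mouse strain, age, drug, mutant allele or cell sort, and they do not say whether replicates are separate animals, and each p-value therefore describes library-to-library spread that may be technical.

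PARP enzymes move ADP-ribose from NAD onto proteins or nucleic acids. Parp1 is a nuclear enzyme that senses DNA breaks and builds long ADP-ribose chains, and most other members of the family add single ADP-ribose units. Interferons, released during infection and in rejecting grafts, switch genes on through transcription factors such as Stat2, Irf1 and Irf9, and several mono-ADP-ribosyltransferases are well known among those targets. Parp14 combines a transferase domain with macrodomains, which bind ADP-ribose. Parp9 also carries macrodomains and works in a complex with Dtx3l, an E3 ubiquitin ligase. Parp10 and Parp11 are mono-ADP-ribosyltransferases, and Parp12 is one that carries zinc fingers and is known for antiviral action.

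Parp14, Dtx3l and Parp9 lie next to each other on chromosome 16, which is why their positions are given with the promoters. In the GENCODE M21 annotation of mm10, Parp14 spans chr16:35832874-35871544 on the minus strand, Dtx3l spans chr16:35926511-35939151 on the minus strand, and Parp9 spans chr16:35938470-35972605 on the plus strand. Parp9 and Dtx3l start head to head and overlap by 682 bases, 54966 bases separate Parp14 from Dtx3l, and the 3 genes together cover 139732 bases. The other members lie apart: Parp1 at chr1:180568924-180601254, Parp8 at chr13:116854820-117025537, Parp10 at chr15:76231174-76243441, and Parp11 and Parp12 both on chromosome 6, at chr6:127446840-127494261 and chr6:39086410-39118349. Parp10 shares 1401 bases with Plec on the same strand, and Parp9 shares 5854 bases with the antisense gene Gm15564. Parp14 shares 1773 bases with Gm49730 and Parp11 shares 2330 with Gm43633, both on the same strand. The sources used here do not give whether the counting used strand, so counts of Parp9 and Dtx3l could include reads of their opposite-strand neighbours. For Parp10, Parp11 and Parp14 the neighbours share the strand, so strand could not separate reads from the shared bases.

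RefSeq promoter sequences (GRCm38.p6, 300 bases each, mostly upstream of a start site) were at hand for 5 of the 8 members. Promoters were searched on both strands for the core of the interferon-stimulated response element (GAAANNGAAA) and for the gamma-activated site (TTCNNNGAA), DNA letters found at many interferon targets. In the sequences below, shown because Parp11 was the member whose promoter held these letters and because the Dtx3l start lies inside the head-to-head overlap with Parp9, capitals mark the matches.
Parp11, chr6:127446590-127446889, plus strand: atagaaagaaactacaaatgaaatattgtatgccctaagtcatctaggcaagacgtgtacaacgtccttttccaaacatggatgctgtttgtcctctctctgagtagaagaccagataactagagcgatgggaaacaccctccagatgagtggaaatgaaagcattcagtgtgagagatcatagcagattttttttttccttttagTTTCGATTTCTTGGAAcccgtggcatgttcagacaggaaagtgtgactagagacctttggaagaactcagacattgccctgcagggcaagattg
Dtx3l, chr16:35938978-35939277, minus strand: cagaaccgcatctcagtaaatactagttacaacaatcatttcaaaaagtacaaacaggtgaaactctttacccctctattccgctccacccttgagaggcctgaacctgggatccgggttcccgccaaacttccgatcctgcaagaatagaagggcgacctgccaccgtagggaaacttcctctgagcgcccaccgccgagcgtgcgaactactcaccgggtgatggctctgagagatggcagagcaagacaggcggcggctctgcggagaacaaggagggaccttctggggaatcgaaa
Parp1, chr1:180568641-180568940, plus strand: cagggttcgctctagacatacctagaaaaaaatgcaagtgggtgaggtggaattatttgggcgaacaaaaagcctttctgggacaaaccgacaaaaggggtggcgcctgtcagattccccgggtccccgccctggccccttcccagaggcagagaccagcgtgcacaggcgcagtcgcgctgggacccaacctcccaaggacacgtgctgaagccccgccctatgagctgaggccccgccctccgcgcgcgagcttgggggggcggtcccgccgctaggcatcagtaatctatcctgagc
The response element match in Parp11 (TTTCGATTTC, its minus-strand form) begins 44 bases before the start site, and the gamma-activated match (TTCTTGGAA) begins 37 bases before it, so that they overlap. The other Parp11 start and the promoters of Parp1, Parp8, Parp12 and Dtx3l held neither string in this window. Of all 32851 promoters of that length, 3.44% held the first string and 8.30% the second, so a match is a description of the letters and not evidence of binding.

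Cells were assigned to classes by marker genes, so macrophage below means macrophage-like, and likewise for each class. Libraries held 51054446 to 100038951 UMIs and 4737 to 10341 cells after filters, with median UMIs per cell of 5194.5 to 7502, and 62.9% to 81.8% of those cells met the gate of a class. Gated allogeneic cells lay on the gate's cut in 33.5% to 44.3% of cases against 14.3% in the isograft. Allogeneic replicate 3 stood apart, with a chi-square per gene of 362 and 386 against replicates 1 and 2, which differed from each other by 17.5. It held 1562 fibroblasts and 856 mononuclear phagocytes, against 44 and 88 fibroblasts and 1914 and 2844 phagocytes in replicates 1 and 2. Library pairs shared 14 to 31 cell barcodes, at most 0.473% of the smaller library. The isograft held only 32 T cells with 7 UMIs of Parp14 in all. NK cells, B cells, dendritic cells, pericytes and cardiomyocytes fell under 20 cells in at least 1 library and were not tested between groups. Levels are CPM, a gene's UMIs relative to all UMIs of the class scaled to a fixed total. They are shares of that class's captured RNA, so fewer transcripts per cell and a larger total of other transcripts cannot be told apart.

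Endothelial cells, which line the vessels and are the graft's first contact with recipient blood cells, carried more of all 6 interferon-linked transcripts in the allografts. Parp14 stood at 493, 524 and 625 CPM in allogeneic replicates 1, 2 and 3 against 63.3 CPM in the isograft. All 3 allografts lay far above the isograft, and the log2 change was 3.16 (SE 0.27, edgeR adjusted p = 0.00557). Dtx3l, the ligase, stood at 154, 135 and 166 CPM against 19.5, a log2 change of 3.01 (SE 0.25, edgeR adjusted p = 0.00549). Its partner Parp9 stood at 170, 154 and 182 CPM against 27.6, a log2 change of 2.66 (SE 0.23, edgeR adjusted p = 0.00629). The 3 neighbours on chromosome 16 thus rose together in this class, as did the interferon-linked genes on other chromosomes, given next. Parp11 was at 62.4, 61.4 and 84.8 CPM against 9.46 (log2 change 2.92, SE 0.31, edgeR adjusted p = 0.0112). Parp10 was at 58.2, 59.0 and 70.5 CPM against 12.4 (log2 change 2.38, SE 0.25, edgeR adjusted p = 0.0112). Parp12 was at 77.0, 78.0 and 109 CPM against 20.1 (log2 change 2.18, SE 0.30, edgeR adjusted p = 0.0231). The 6 of 6 calls stood against 2.68% of all endothelial genes called higher and 1.04% called lower, and the 6 log2 changes had a median of 2.79. All 6 calls held when any 1 allogeneic library was left out. Those fits called 1.75%, 2.72% and 39.2% of all genes without replicates 1, 2 and 3. Markers of other cells moved in the same cells: the 6 T cell markers summed to 18.1 to 67.9 CPM in the allografts against 3.94 in the isograft and the 6 monocyte markers to 125 to 201 against 29.4, with none of either list at 0 in any library, and their part in these changes was not tested.

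**Figure D1:**
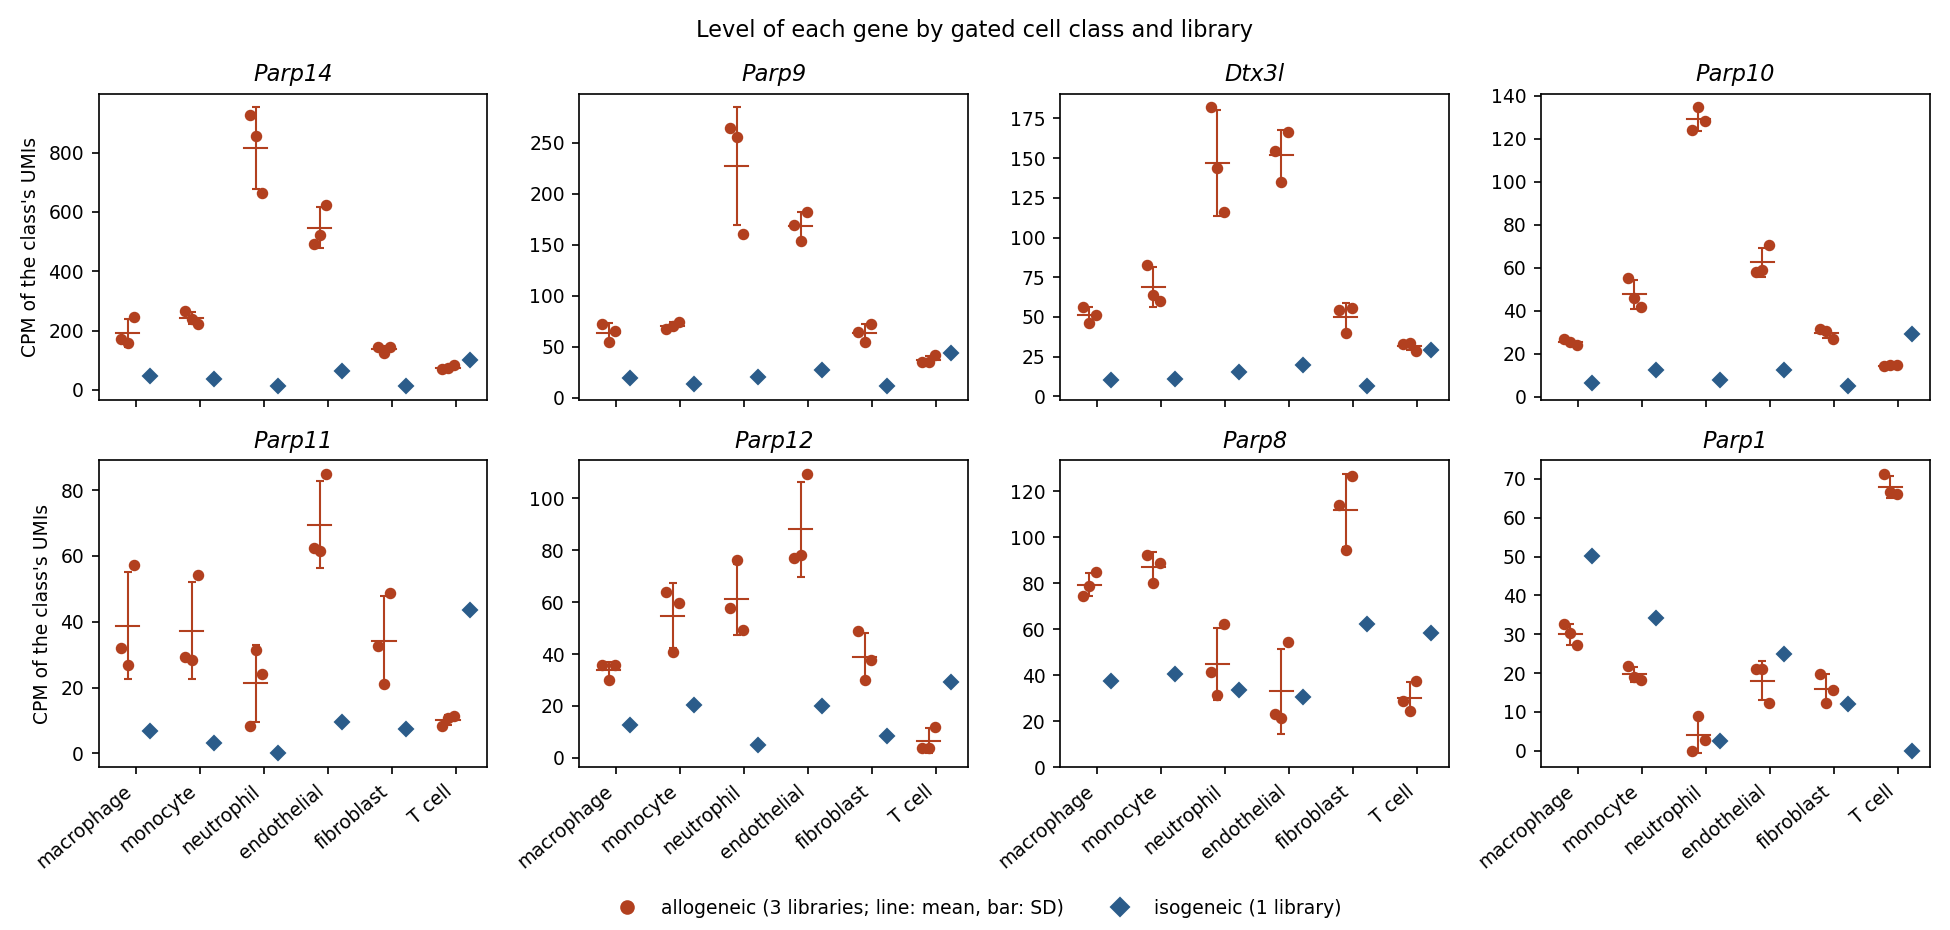
Level of each gene (CPM, linear axis from 0) in 6 gated cell classes, with circles for the 3 allogeneic libraries, a line and bar for their mean and SD, and a diamond for the isograft. For the 6 interferon-linked genes the circles lie above the diamond in every class but T cells, as in endothelial Parp14 at 493 to 625 CPM against 63.3, while the macrophage circles of Parp1 lie below theirs.

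Mononuclear phagocytes, the joint class of macrophages, monocytes and cells between them, showed rises of 5 of the 6 interferon-linked genes and of Parp8, against 5.08% of all genes called higher and 3.92% lower. Parp14 measured 187, 176 and 223 CPM in allogeneic replicates 1, 2 and 3 against 46.3 CPM, so the groups did not overlap (log2 change 2.07, SE 0.22, edgeR adjusted p = 0.0141). For Dtx3l the values were 64.4, 50.8 and 53.6 CPM against 10.3, the largest of the 5 called changes (log2 change 2.45, SE 0.23, edgeR adjusted p = 0.0119). Parp9 had 70.2, 62.9 and 67.1 CPM against 19.3 (log2 change 1.79, SE 0.18, edgeR adjusted p = 0.0124). The 3 allografts were close to each other for Parp10, at 31.7, 31.2 and 32.8 CPM against 6.83 (log2 change 2.22, SE 0.18, edgeR adjusted p = 0.0100). Parp12 had 39.6, 33.6 and 47.4 CPM against 13.2 (log2 change 1.60, SE 0.24, edgeR adjusted p = 0.0261). Parp11 did not pass. It had 30.1 and 27.8 CPM in replicates 1 and 2, 59.4 in replicate 3 and 6.54 in the isograft (log2 change 2.55, SE 0.55, edgeR adjusted p = 0.0541). Without replicate 3 it passed at a log2 change of 2.19 (edgeR adjusted p = 9.69e-11), and without replicate 1 at 2.71 (edgeR adjusted p = 0.0356). Those fits called 54.4% and 4.46% of all genes. Beside these changes, the 6 monocyte markers summed to 1546 to 2987 CPM in the allografts against 326 in the isograft and the 6 T cell markers to 11.4 to 80.6 against 2.73, with 1 T cell marker at 0 in the isograft.

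Split by marker, both kinds of phagocyte gave positive log2 changes for all 6 interferon-linked genes. In macrophages 5 of 6 passed, against 3.03% of all genes called higher and 1.30% lower. Macrophage Parp14 ran at 172, 157 and 246 CPM against 47.5 in the isograft (log2 change 2.02, SE 0.35, edgeR adjusted p = 0.0450). The largest called rise among them was that of Dtx3l (log2 change 2.34, SE 0.22, edgeR adjusted p = 0.0143), and the smallest that of Parp12 (log2 change 1.44, SE 0.21, edgeR adjusted p = 0.0332). The calls depended on the library left out: without replicate 1 only Dtx3l passed of the 6, without replicate 2 none did (none of all 14327 genes then passed), and without replicate 3 all 6 did, where 50.4% of all genes were called. Every log2 change stayed positive. With replicate 2 left out, the macrophage log2 changes of Parp14 and Dtx3l were 2.15 (edgeR adjusted p = 0.275) and 2.42 (edgeR adjusted p = 0.206). In monocytes Parp14, Parp9 and Dtx3l passed, against 1.69% of all genes called higher and 0.962% lower. Monocyte Parp14 ran at 264, 240 and 222 CPM against 35.9 (log2 change 2.63, SE 0.30, edgeR adjusted p = 0.00794), with only 23 UMIs behind the isograft value. Monocyte Parp9 ran at 67.8, 70.6 and 74.2 CPM against 14.03 (log2 change 2.21, SE 0.34, edgeR adjusted p = 0.0218), and Dtx3l at 82.9, 63.9 and 59.7 CPM against 10.9 (log2 change 2.51, SE 0.42, edgeR adjusted p = 0.0263). Their isograft values rested on still fewer UMIs, 9 of Parp9 and 7 of Dtx3l. In allograft monocytes the 6 T cell markers summed to 55.3, 61.8 and 11.9 CPM, with all 6 at 0 in the isograft, and the 6 neutrophil markers to 395 to 742 CPM against 224. Monocyte Parp11 rested on 2 isograft UMIs, and the ratio of its mean allograft level to the isograft was 11.95 (95% counting interval 3.31 to 98.7). Without replicate 3, 7 of the 8 members passed in monocytes, where 20.1% of all genes were called. Allograft macrophages had median UMIs per cell of 8374, 6658 and 7261 against 4734 in the isograft. The 6 monocyte markers summed to 572 to 836 CPM in allograft macrophages against 139 in isograft macrophages, and the part of depth and of these markers was not tested.

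Fibroblasts, which lay down collagen and other matrix, carried more of 5 of the 6 interferon-linked transcripts in the allografts. Parp14 ran at 144, 126 and 146 CPM in the allografts against 12.1 CPM, with the allografts close together (log2 change 3.45, SE 0.34, edgeR adjusted p = 0.000752). Fibroblast Dtx3l ran at 54.2, 40.04 and 55.4 CPM against 6.23 (log2 change 2.94, SE 0.38, edgeR adjusted p = 0.00324), and Parp9 at 64.1, 54.6 and 72.3 CPM against 11.3 (log2 change 2.44, SE 0.35, edgeR adjusted p = 0.00537). Parp10 (log2 change 2.50, SE 0.37, edgeR adjusted p = 0.00620) and Parp12 also passed (log2 change 2.10, SE 0.38, edgeR adjusted p = 0.0175). Parp11 lay at the threshold, at 32.5, 21.1 and 48.6 CPM against 7.47 (log2 change 2.19, SE 0.50, edgeR adjusted p = 0.05002), and it passed whichever allograft was left out. Those fits called 6.81%, 5.42% and 15.1% of all genes without replicates 1, 2 and 3. In fibroblasts 2.60% of all genes were called higher and 0.725% lower, beside 5 of the 6 interferon-linked genes. Replicates 1 and 2 contributed 44 and 88 fibroblasts. The 6 macrophage markers summed to 208 to 543 CPM in allograft fibroblasts against 55.5 in the isograft, 3 of the 6 were called higher, and 1 of them was at 0 in replicates 1 and 2. The 6 T cell markers summed to 23.5 to 63.3 CPM against 13.3, and 3 of the 6 were called higher. Their part in the fibroblast changes was not tested.

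Neutrophils, short-lived white cells that enter the graft early, showed the highest Parp14 level of any class. Parp14 reached 926, 857 and 662 CPM in the allografts, from 49, 93 and 294 cells, while the isograft's 263 neutrophils held 5 Parp14 UMIs, or 12.8 CPM (log2 change 6.103, SE 0.78, edgeR adjusted p = 0.00537). Neutrophil Parp9 ran at 265, 256 and 161 CPM against 20.5 (log2 change 3.58, SE 0.66, edgeR adjusted p = 0.0205), and Dtx3l at 182, 144 and 116 CPM against 15.4 (log2 change 3.37, SE 0.65, edgeR adjusted p = 0.0236). Their isograft values rested on 8 UMIs of Parp9 and 6 of Dtx3l. Parp10 was at 124, 135 and 128 CPM with 3 UMIs in the isograft, a ratio of 16.8 (95% counting interval 5.73 to 81.3). Parp12, at 57.9, 76.3 and 49.4 CPM, had 2 isograft UMIs and a ratio of 11.9 (95% counting interval 3.30 to 98.4). Parp11 had no UMI in isograft neutrophils, which allows up to 7.70 CPM at 3 counts over the class. The allograft mean of 21.2 CPM was 2.76 times that limit. It rested on 1, 7 and 17 UMIs in replicates 1, 2 and 3, and replicate 1, at 8.27 CPM, lay close to the limit. All 5 interferon-linked genes tested passed, beside 2.31% of all genes called higher and 0.0454% lower. Without replicate 1, however, no gene of this class passed, and Parp14 then had a log2 change of 6.15 (edgeR adjusted p = 0.273). The 6 macrophage markers summed to 109 to 1691 CPM in allograft neutrophils against 175 in the isograft, and the 6 monocyte markers to 1555 to 2245 against 336. Each list had 1 marker at 0 in at least 1 allograft, and their part was not tested.

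**Figure D2:**
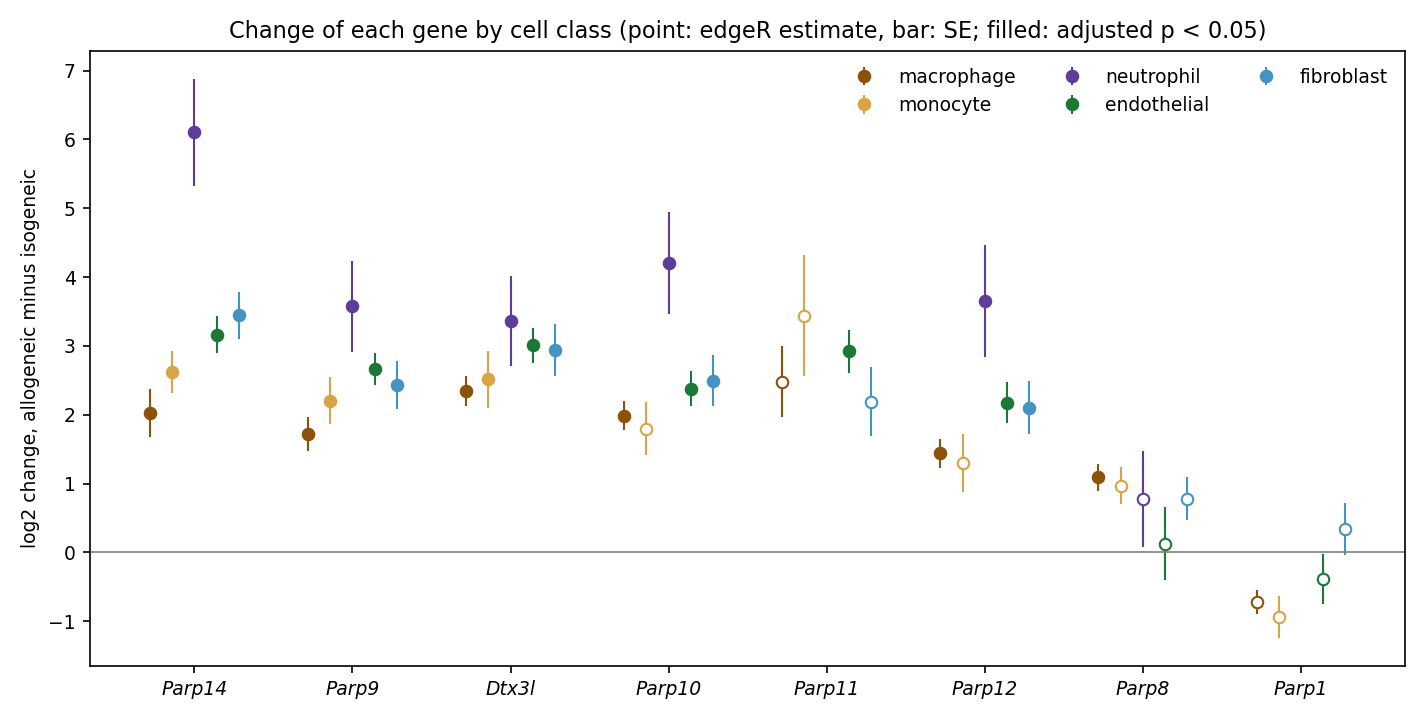
Log2 change (allogeneic minus isogeneic, edgeR estimate, linear axis) of each gene in 5 cell classes, with bars for the SE and filled points for adjusted p under 0.05. The 6 interferon-linked genes lie between 1.30 and 6.103 wherever tested, while Parp1 lies on both sides of 0 and is never filled.

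Across these classes, leaving out the T cells and the sum of all cells, 29 of 35 tests of an interferon-linked gene passed. Beside them, 1.69% (monocytes) to 5.08% (joint phagocyte class) of all genes were called higher. The log2 changes of the interferon-linked genes ran from 1.30 to 6.103. The joint phagocyte class shares its cells with the macrophage and monocyte classes, so these tests are not independent. The medians of the 6 changes were 2.00 in macrophages, 2.36 in monocytes, 2.15 in the joint class and 2.47 in fibroblasts. In neutrophils the median over the 5 tested was 3.65. The medians of all genes tested lay between -0.02 and 0.06 in these classes. No member was called lower in any class by edgeR, though Parp1 had an unadjusted p under 0.05 in macrophages (0.00818), monocytes (0.0177) and the joint class (0.00634).

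Parp8, a less studied mono-ADP-ribosyltransferase, passed in macrophages and in the joint phagocyte class but in no other class, and its difference between classes did not pass the test described below (edgeR adjusted p = 0.440). In mononuclear phagocytes it ran at 78.5, 80.5 and 85.9 CPM against 38.2, with no overlap (log2 change 1.09, SE 0.17, edgeR adjusted p = 0.0270), and it lost its call without replicate 1 (edgeR adjusted p = 0.0943) or without replicate 2 (edgeR adjusted p = 0.119). Endothelial Parp8 overlapped the isograft, at 23.1, 21.3 and 54.4 CPM against 30.7, and the log2 change of 0.13 (SE 0.53, edgeR adjusted p = 0.917) turned to -0.41 without replicate 3 (edgeR adjusted p = 0.130). Fibroblast Parp8, at 114, 94.6 and 126 CPM against 62.2, did not pass (log2 change 0.78, SE 0.31, edgeR adjusted p = 0.278).

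Parp1, the break-sensing enzyme, was called in no class. In mononuclear phagocytes it ran lower in each allograft, at 31.3, 27.0 and 25.1 CPM against 49.5, just outside the threshold (log2 change -0.83, SE 0.19, edgeR adjusted p = 0.0587). Without replicate 3 it passed at -0.72 (edgeR adjusted p = 2.37e-05), and DESeq2 with all libraries gave an adjusted p of 0.0474. Those 2 fits called 54.4% and 14.7% of all genes, so a call was common in them. The share of phagocytes with at least 3 of 6 division genes detected was 5.12%, 2.32% and 3.97% in the allografts against 10.9% in the isograft, and its part in the Parp1 difference was not tested. Among phagocytes with none of those genes Parp1 had a log2 change of -0.79 (edgeR adjusted p = 0.0649), in a fit added after the data were seen. Macrophage Parp1 ran at 32.5, 30.3 and 27.1 CPM against 50.3 (edgeR adjusted p = 0.0868). Endothelial Parp1 at 20.96, 21.05 and 12.2 CPM against 24.8 (edgeR adjusted p = 0.595) and fibroblast Parp1 at 19.9, 12.4 and 15.7 CPM against 11.97 (edgeR adjusted p = 0.799) did not pass. In neutrophils Parp1 had 0, 8.97 and 2.82 CPM in allogeneic replicates 1, 2 and 3 against 2.57, and it was not tested.

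Setting the interferon-linked transcripts against Parp1 inside each library gives a ratio that needs no scaling between libraries. In mononuclear phagocytes there were 13.5, 14.2 and 19.3 UMIs of the 6 interferon-linked genes per Parp1 UMI in the allografts (15.7 ± 3.16, SD, n = 3) against 2.07 in the isograft, 7.57 times as many. Monocytes had 26.5 ± 1.29 (SD, n = 3) against 2.82, with only 22 Parp1 UMIs in the isograft, and fibroblasts had 22.6 ± 3.24 (SD, n = 3) against 4.23. Macrophages had 13.7 ± 3.47 (SD, n = 3) against 2.05. Endothelial cells had 48.4, 48.0 and 101 against 6.13, with replicate 3 standing apart. Its Parp1 was low, at 12.2 CPM from 29 UMIs, and each of the 6 interferon-linked genes was highest in that allograft. In each of these classes every allograft lay above the isograft. An exact two-sided permutation test over 3 libraries against 1 cannot go below p = 0.25, and it gave 0.25 in the phagocyte classes and fibroblasts and 0.5 in endothelial cells. The allograft phagocytes had the lower Parp1 levels given above, so the ratio holds a change of its denominator as well.

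**Figure D3:**
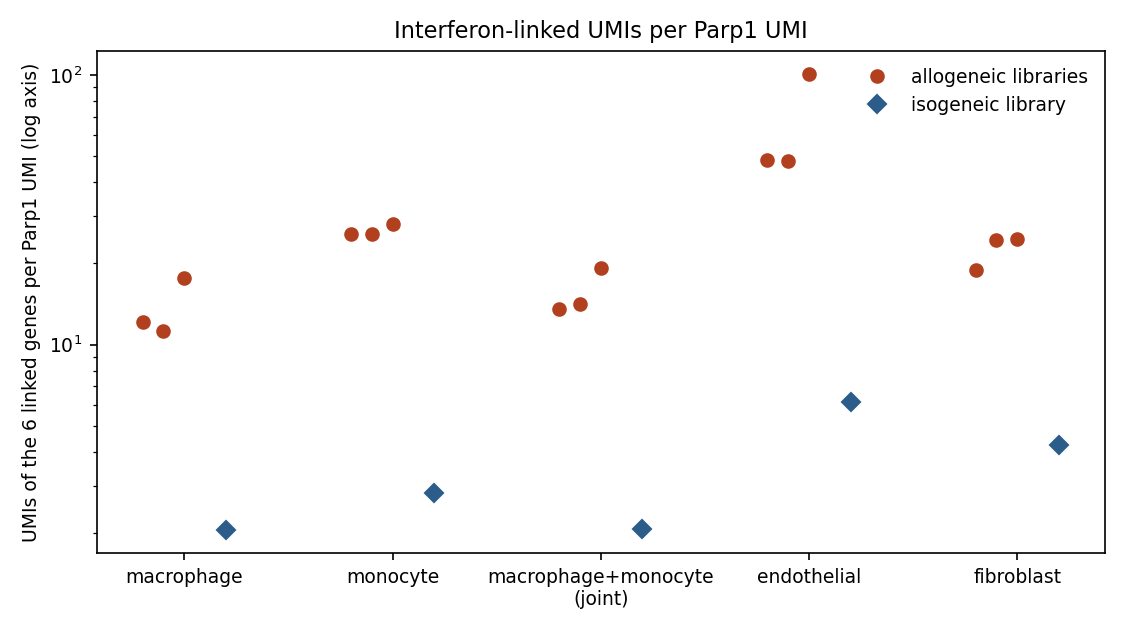
UMIs of the 6 interferon-linked genes per Parp1 UMI (log axis) in 5 cell classes, with circles for the 3 allogeneic libraries and a diamond for the isograft. All circles lie above the diamond of their class, from 11.2 in a macrophage library to 101 in endothelial replicate 3, against 2.05 to 6.13 in the isograft.

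Summed over all cells, with the change in cell composition left in, all 8 members were higher in each allograft than in the isograft, yet 0 passed edgeR's adjusted test. Parp14 stood at 172, 182 and 200 CPM against 23.7 (log2 change 2.97, edgeR adjusted p = 0.125). Parp1 stood at 42.02, 36.4 and 23.5 CPM against 21.95 (log2 change 0.64, edgeR adjusted p = 0.437), with replicate 3 closest to the isograft. No gene of 20038 passed in this sum (0% of all genes called higher and 0% lower), 3421 had an unadjusted p under 0.05, including all 6 interferon-linked genes, and DESeq2 called 2417 genes higher and 1441 lower with the 6 among them. Leaving out replicate 3 gave 7 called members in edgeR, in a fit that called 64.0% of all genes.

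Among T cells, the recipient's graft-attacking lymphocytes, the comparison rested on 32 isograft cells. Parp14 ran at 69.3, 74.3 and 82.6 CPM in the allografts and 102 CPM, from 7 UMIs, in the isograft (log2 change -0.15, SE 0.38, edgeR adjusted p = 0.854). Parp1 ran at 71.2, 66.8 and 66.0 CPM, and no UMI was seen in the isograft (edgeR adjusted p = 0.184). That absence allows up to 43.7 CPM at 3 counts over the class, and the allograft mean was 1.56 times that limit. The other 6 members had 2 to 4 UMIs each in the isograft, and none passed. No gene passed (0% of all genes called higher and 0% lower), although 1650 genes, with Parp1 among the members, had an unadjusted p under 0.05 and DESeq2 called 44 higher and 178 lower. The 6 fibroblast markers summed to 2096 CPM in isograft T cells against 13.2 to 149 in the allografts, with 2 of the 6 at 0 in the isograft. The median gene in this class moved by 0.86, so changes of T cells are not comparable with those of other classes.

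Within the allografts alone, the classes could be ordered by level for each gene, over 7 classes with at least 20 cells in each allograft. Parp14 was highest in neutrophils (815 ± 137 CPM, SD, n = 3), then endothelial cells (547 ± 68.8), monocytes (242 ± 20.99), macrophages (192 ± 47.4), fibroblasts (138 ± 10.8), NK cells (92.3 ± 29.9) and T cells (75.4 ± 6.72). Monocytes and macrophages did not differ beyond their spread for Parp14 (edgeR adjusted p = 0.430), nor NK cells and T cells (edgeR adjusted p = 0.989), while the other neighbours did. Parp9 and Parp10 also led in neutrophils, at 227 ± 57.5 and 129 ± 5.29 CPM (SD, n = 3). Parp11 and Parp12 led in endothelial cells, at 69.6 ± 13.2 and 88.1 ± 18.4 CPM, but for Parp12 the scaled difference between endothelial cells and neutrophils (61.2 ± 13.7 CPM) went against the CPM order and was not called (log2 difference -0.15, edgeR adjusted p = 0.719). Dtx3l was nearly level in endothelial cells (152 ± 15.6) and neutrophils (147 ± 33.2), and after TMM scaling, which allows for differences in RNA makeup, the neutrophils were higher by 0.62 on the log2 scale (edgeR adjusted p = 0.0125). Parp1 had a different order: T cells led (68.0 ± 2.79 CPM), above NK cells (30.3 ± 13.1, edgeR adjusted p = 0.0137). Neutrophils were last for Parp1 (3.93 ± 4.59), from 0, 2 and 2 UMIs in replicates 1, 2 and 3, and no other neighbouring pair was called. Parp8 led in fibroblasts (112 ± 16.0 CPM). Of the 48 neighbouring pairs of the 8 members, 20 (41.7%) were called, against 18.4% of such pairs over all genes, and the scaled difference went against the CPM order in 7 pairs.

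Whether the allograft difference itself varied between classes was tested over 6 classes with library as a block. Parp14 passed (F = 18.4, edgeR adjusted p = 0.000360), as did Parp1 (F = 5.87, edgeR adjusted p = 0.0404), and the other 6 members did not, against 4.69% of all genes. Relative to the macrophage change, the Parp14 log2 change was 4.14 larger in neutrophils, 1.37 larger in fibroblasts, 1.15 larger in endothelial cells and 0.74 larger in monocytes, and it differed by -1.96 in T cells. With T cells and neutrophils left out, where the isograft had 7 and 5 Parp14 UMIs, the tests gave edgeR adjusted p = 0.0577 for Parp14 and 0.183 for Parp1, so both calls rested on those classes. Parp1 also lost its call without replicate 1 (edgeR adjusted p = 0.196) or replicate 2 (edgeR adjusted p = 0.143).

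Counting cells rather than transcripts showed how widely the change was spread within a class, after each cell was thinned to 3000 UMIs. A Parp14 UMI was found in 70.5%, 76.4% and 65.6% of allograft endothelial cells against 15.3% in the isograft. Among mononuclear phagocytes the shares were 41.4%, 39.5% and 45.9% against 11.3%, and among fibroblasts 34.1%, 22.4% and 31.2% against 3.80%. Allograft T cells of the same libraries had 21.05%, 22.03% and 24.04%. The 95% Wilson intervals of the isograft shares, which cover counting error only, were 12.5% to 18.5% in endothelial cells, 9.90% to 12.9% in phagocytes and 3.27% to 4.41% in fibroblasts. No class here is known to lack Parp14, so the share that free RNA gives was not measured. Without thinning, the endothelial shares were 91.1%, 86.7% and 77.9% against 22.8%. Parp1 ran the other way in phagocytes, with 8.44%, 7.54% and 5.39% against 14.3%. At least 1 of the 6 interferon-linked genes was seen in 90.0%, 92.5% and 87.0% of allograft endothelial cells against 33.0% in the isograft, and at least 3 of them in 32.5%, 30.3% and 31.6% against 1.26%. Leaving out cells below 3000 UMIs removed 25, 99 and 274 of the allograft endothelial cells and 406 of the isograft's. No test was run across cells, which are not replicates.

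**Figure D4:**
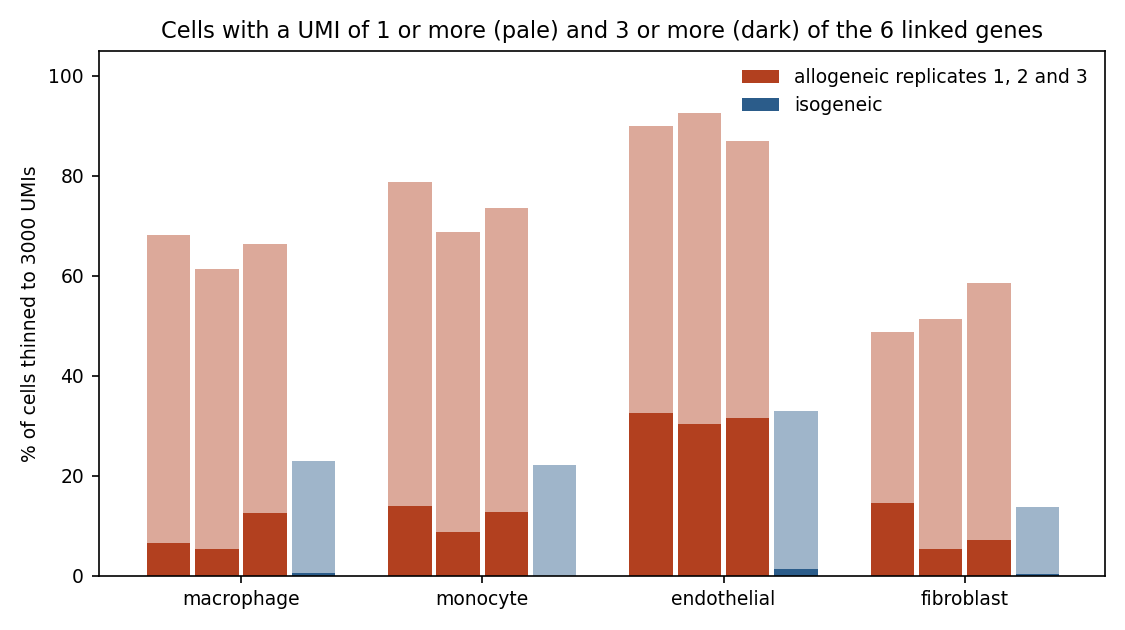
Share of cells, each thinned to 3000 UMIs, with a UMI of at least 1 (pale) or at least 3 (dark) of the 6 interferon-linked genes, for the 3 allogeneic libraries and the isograft in 4 classes. Every allograft bar is taller than the isograft bar of its class, as with 87.0% to 92.5% against 33.0% in endothelial cells.

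Dividing and non-dividing T cells of the allografts differed in every member in the edgeR fit of all 3 allografts, and Parp1 moved opposite to the rest. Dividing cells had at least 3 of Mki67, Top2a, Birc5, Cdk1, Ccnb1 and Ccna2 detected and non-dividing ones none, which gave 473, 616 and 109 dividing and 193, 424 and 203 non-dividing T cells. Detection rises with depth, and median UMIs per cell were 17803, 13661 and 15140 in dividing against 5442, 4380 and 3440 in non-dividing T cells. The part of depth in these differences was not tested. Parp1 stood at 75.8, 77.4 and 79.8 CPM in dividing cells against 55.2, 35.6 and 36.8 in non-dividing ones (log2 difference 0.95, SE 0.16, edgeR adjusted p = 0.000694). Parp14 stood at 58.0, 60.0 and 60.3 CPM in dividing cells against 116, 116 and 120 (log2 difference -0.90, SE 0.12, edgeR adjusted p = 0.000106). The groups did not overlap for either gene, and the other 6 members were lower in dividing cells of all 3 libraries, with log2 differences from -0.57 for Dtx3l to -1.10 for Parp12. Of all genes tested, 19.7% were called higher and 20.8% lower, so a call was common here. The count of calls moved with 1 library left out: 3 of the 8 passed without replicate 1, 3 without replicate 2 and 6 without replicate 3, and DESeq2 called 3. In mononuclear phagocytes none of the 8 passed edgeR's adjusted test, beside 7.91% of all genes called higher and 4.19% lower. There Parp1 had 41.9 ± 7.04 CPM in dividing cells against 26.6 ± 3.40 (SD, n = 3; log2 difference 0.57, SE 0.17, edgeR adjusted p = 0.0541), 3 members had an unadjusted p under 0.05, and DESeq2 called 0.

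**Figure D5:**
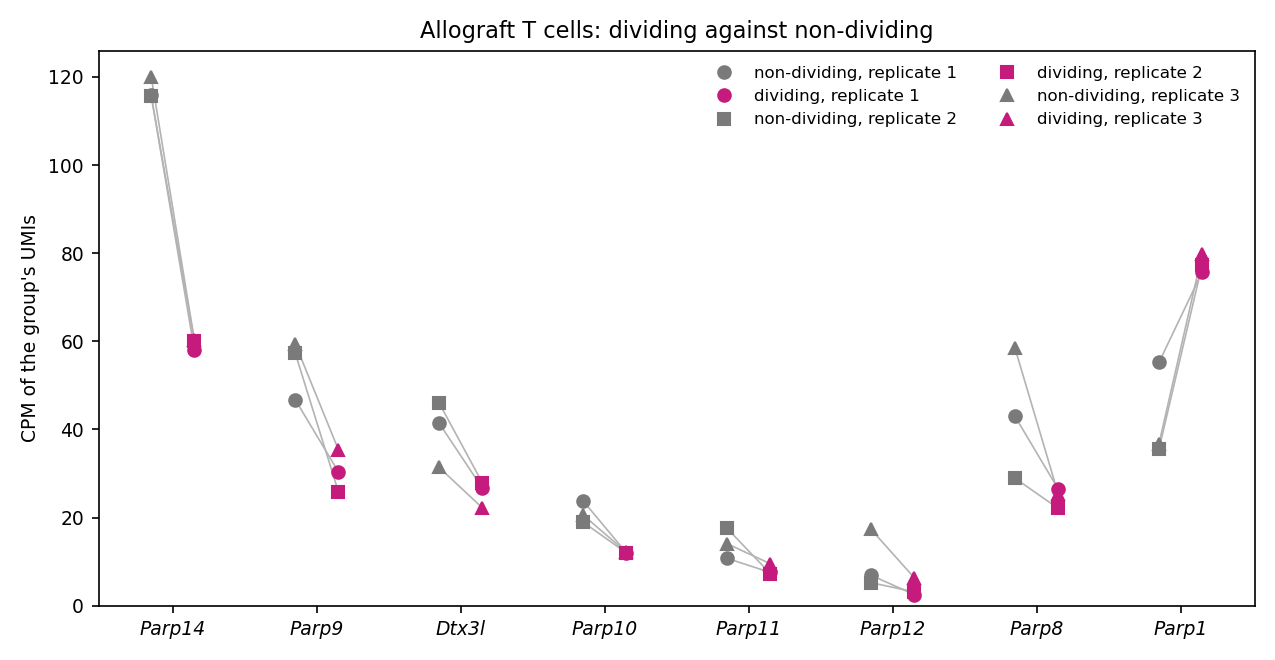
Level of each gene (CPM, axis from 0) in non-dividing (grey) and dividing (magenta) T cells of the 3 allogeneic libraries, with a line joining the values of 1 library. Lines fall for every gene but Parp1, as with Parp14 from 116 to 120 CPM down to 58.0 to 60.3, and rise for Parp1.

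The other genes of the pathway moved unevenly in the same fits. Of 9 other PARP genes tested, 2 were higher in mononuclear phagocytes (median log2 change 0.58) and 1 in endothelial cells (median 0.22), and none was lower, beside 5.08% and 2.68% of all genes called higher. Parp3, a DNA-repair member, was higher in both, by 1.71 (SE 0.21, edgeR adjusted p = 0.0172) and 2.50 (SE 0.38, edgeR adjusted p = 0.0311), and Parp4 was higher in phagocytes, by 1.25 (edgeR adjusted p = 0.0487). Zc3hav1, the zinc-finger antiviral protein, had changes of 0.60 (edgeR adjusted p = 0.188) and 0.69 (edgeR adjusted p = 0.210), and Tiparp, an aryl hydrocarbon receptor target, 0.36 (edgeR adjusted p = 0.505) and -0.36 (edgeR adjusted p = 0.604).

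Enzymes that supply or use NAD, the source of ADP-ribose, were led by 2 genes in both classes. Nampt, which makes the NAD precursor in the salvage route, ran at 454, 397 and 415 CPM in allograft phagocytes against 57.9 (log2 change 2.87, SE 0.22, edgeR adjusted p = 0.00911), and it rose by 2.59 in endothelial cells (SE 0.23, edgeR adjusted p = 0.00628). Bst1, an ectoenzyme that consumes NAD, rose by 2.29 (edgeR adjusted p = 0.0129) and 3.52 (edgeR adjusted p = 0.0201). Cd38, its paralog, differed among the phagocytes of the allografts, at 278, 362 and 120 CPM against 31.3 (log2 change 3.03, SE 0.75, edgeR adjusted p = 0.0723), and had 0.34 in endothelial cells (edgeR adjusted p = 0.453). The other 8 phagocyte genes and 7 endothelial genes of that list were not called. Of all genes, 5.08% were called higher in phagocytes and 2.68% in endothelial cells, and 3.92% and 1.04% lower. Of 7 genes that remove or read ADP-ribose, 1 was called higher and 1 lower in phagocytes, beside those shares of 5.08% and 3.92%. They were the phosphodiesterase Adprm, by 0.83 (edgeR adjusted p = 0.0452), and the hydrolase Macrod1, by -1.86 (edgeR adjusted p = 0.0352). In endothelial cells edgeR called none of the 7, with 0 at an unadjusted p under 0.05. None of 8 repair partners of Parp1 and none of 8 reference genes was called by edgeR in either class, and at an unadjusted p under 0.05 there were 0 repair partners in both, and 0 reference genes in phagocytes and 1 in endothelial cells.

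Of 18 interferon signalling genes, 8 rose in phagocytes (median log2 change 1.23) and 7 in endothelial cells (median 0.94), with none lower, beside 5.08% and 2.68% of all genes called higher. Socs1, a feedback inhibitor, rose by 4.23 and 4.44 (edgeR adjusted p = 0.00886 and 0.00252). Irf1 rose by 2.70 and 2.81, Stat2 by 2.18 and 1.49, and Irf7 by 4.11 in endothelial cells. Irf9, a partner of Stat2, had 0.45 (edgeR adjusted p = 0.132) and 0.89 (edgeR adjusted p = 0.0997) and did not pass. Of 3 interferon ligands tested in phagocytes 1 was called higher, and of 2 in endothelial cells 1, beside those shares of 5.08% and 2.68%. Ifng, the ligand made by T and NK cells, had 7.51, 6.90 and 17.8 CPM in allograft phagocytes and 2 UMIs in the isograft. Allograft phagocytes also carried the T cell markers given above, and their part in the Ifng level was not tested. Of 12 cell cycle genes, 6 were lower in phagocytes (median -1.33), led by Birc5 at -2.22 and Ccnb1 at -2.21, and 3 in endothelial cells (median -1.79), led by Ccna2 at -3.64 and Mcm5 at -1.76, beside 3.92% and 1.04% of all genes called lower.

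Across 31 sums of a library and class, all members were set against each other as log2(CPM + 1), as a description with no test, since sums share libraries and depth. The 15 pairs among the 6 interferon-linked genes had Pearson correlations of 0.51 to 0.92, highest for Parp10 with Dtx3l. Parp14 had 0.89 with Dtx3l and 0.89 with Parp9, its neighbours on chromosome 16, and also 0.89 with Parp10 on chromosome 15. The head-to-head pair Parp9 and Dtx3l had 0.74. Some sums were shallow: isograft B cells (22 cells) held 0 UMIs of Parp10, Parp11, Parp12 and Dtx3l and 3 of Parp9. The part of such sums in these correlations was not tested. Parp1 had -0.55 to -0.10 with the 6, and Parp8 had -0.03 to 0.47. Of 9039 genes with a mean of at least 10 CPM, Gbp5 was most like Parp14 (0.95), followed by Tgtp1 (0.92), Herc6 (0.91), Gbp3 (0.90) and Gbp7 (0.90). Gbp3, Gbp5 and Gbp7 encode guanylate-binding proteins and Tgtp1 an interferon-inducible GTPase. The genes most like Parp1 were Tob2 (0.91), Pym1 (0.91), Gtf2h4 (0.89), Armc10 (0.87) and Wdr36 (0.87). Parp1 itself had 0 UMIs in isograft T cells and replicate 1 neutrophils, and 1 or 2 in the other neutrophil sums. The part of these low sums in the ranking was not tested.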

How the data were processed

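The deposited matrices hold counts: unnormalized whole UMIs for each gene in each cell barcode, per the file headers and the labels' protocols (droplet 3' libraries). Cell Ranger 3.1.0 and mm10 are named in the submitters' processing notes, but the matrix headers give version 6.1.0, and the sources used here do not give which produced them. Barcodes under 500 UMIs or 300 genes, or over 20% mitochondrial UMIs, were left out, and the highest Scrublet scores were removed at 0.8% per 1000 barcodes. A cell was gated to the class with the most detected of 6 markers, at least 3 and at least 2 more than of any other class (scanpy 1.11.5, Python 3.11.15). Sums of counts per library and class were compared with edgeR 4.0.16 (R 4.3.3; quasi-likelihood F-test, TMM, default filter, Benjamini-Hochberg over all genes, threshold 0.05), in classes with 20 or more cells in every library. The isograft is assumed to vary like the allografts, with 2 residual degrees of freedom. SEs are approximate, being the size of the log2 change over the root of its F. The scripts were tested on simulated data. All 8 members are named in every class, and of each pathway list the 2 largest passing rises and falls plus Stat2, Irf1, Irf9, Zc3hav1, Tiparp, Nampt and Cd38, with 1 further gene of the rule not reported here. Members and lists were chosen with earlier results of these data known. Alternatives were DESeq2 1.42.0, RLE scaling, no expression filter, stricter and looser gates, doublets kept, a 10% mitochondrial limit, and each allograft left out. Chosen after seeing the data were non-dividing cells only, the ratio to Parp1 with each allograft left out, and the interaction without T cells and neutrophils.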

Additional observations from a re-analysis of the deposited data

Results flagged for a closer look

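The difference between allogeneic and isogeneic grafts varied between cell classes for 2 members, by a test of the difference itself over 6 classes with library as a block. Parp14 had an edgeR adjusted p of 0.000360, with its largest change in neutrophils and its smallest in T cells. Parp1 had an edgeR adjusted p of 0.0404, with 0 isograft T cell UMIs. The isograft held few UMIs of either gene in T cells and neutrophils, and with both classes left out the edgeR adjusted p values were 0.0577 and 0.183.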

How the results depend on the processing

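No paired analysis was possible because the 2 groups share only 1 replicate number. Of 892 alternative values, 746 were changes of a single gene, and 635 of these kept their direction and side of the threshold. In all 69 combinations of class and setting outside T cells every tested interferon-linked gene kept a positive log2 change. Members called in all cells went from 0 to 6 with DESeq2 and ran from 0 to 7 with each allograft left out. The ranges with 1 allograft left out were 0 to 8 in macrophages (6 with all libraries), 4 to 7 in monocytes (3), 5 to 8 in mononuclear phagocytes (6), 0 to 1 in T cells (0), 0 to 5 in neutrophils (5), 6 to 6 in endothelial cells (6) and 6 to 6 in fibroblasts (5). Monocytes gave 6 calls with no expression filter. UMIs per Parp1 UMI were 33.7 (stricter gate) and 21.3 (looser gate) in monocytes against 26.5, and 26.7 (stricter gate) in fibroblasts against 22.6. The interaction called 1 member with the stricter gate, 0 without T cells and neutrophils, and 1 to 6 with 1 allograft left out. Over all genes, it called 460 of 14528 with the stricter gate and 752 of 14896 without T cells and neutrophils. Without replicates 1, 2 and 3 it called 144 of 15845, 156 of 15205 and 4513 of 15422 genes. The 6 member calls came without replicate 3, where a call was common. Dividing T cells gave 4 calls with no expression filter, 3 with DESeq2, 5 with the stricter gate and 3 to 6 with 1 allograft left out. Dividing phagocytes gave 2 with no expression filter, 2 with the looser gate and 0 to 2 with 1 allograft left out. The main dividing fits called 19.7% of all genes higher and 20.8% lower in T cells, and 7.91% and 4.19% in phagocytes. Shares of all genes in the alternative dividing fits are not given here. The cause of these shifts was not tested. Log2 changes turned in direction in 11 cases, none with an adjusted p under 0.05. In T cells these were Dtx3l with the stricter gate (-0.15), Parp10 with the looser gate (0.043) and in non-dividing cells (0.41), and Parp14 in non-dividing cells (0.086). With 1 allograft left out, Parp9 in T cells ran from -0.064 (without replicate 3) to 0.12 and endothelial Parp8 from -0.41 (without replicate 3) to 0.36. In dividing against non-dividing phagocytes, Parp9 ran from -0.30 to 0.059 (without replicate 3), Parp11 from -0.15 to 0.0089 (without replicate 3), and Parp12 from -0.040 (without replicate 2) to 0.11, with -0.052 with no expression filter. Counts over all genes also moved. Against the full fit, they ran between the lowest and highest alternative as follows: macrophages 627 (0 without replicate 2 to 7176 without replicate 3), mononuclear phagocytes 1396 (398 without replicate 2 to 8435 without replicate 3), monocytes 287 (up to 1969 without replicate 3), neutrophils 104 (0 without replicate 1 to 506 without replicate 3), endothelial cells 465 (225 without replicate 1 to 5010 without replicate 3), fibroblasts 505 (up to 1629 with no expression filter), T cells 0 (up to 818 without replicate 3) and all cells 0 (up to 12599 without replicate 3). Depth limits T cells, neutrophils and monocytes of the isograft most.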

Other observations

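Classes too small for a test in at least 1 library held the members as well. Allograft NK cells, 29, 42 and 94 in number, had Parp14 at 94.95, 121 and 61.2 CPM, from 17, 31 and 57 UMIs, and Parp8 at 117, 93.6 and 59.1 CPM. Dendritic cells of allogeneic replicate 3 (28 cells) had Parp14 at 164 CPM and Parp8 at 146 CPM, from 45 and 40 UMIs. Pericytes of the isograft (123 cells), contractile cells around small vessels, had Parp8 at 84.8 CPM, Parp14 at 24.7 CPM and Parp1 at 21.6 CPM.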
